A study of Canis lupus familiaris with 6 samples.

Results

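The genes described here encode ATP-binding cassette (ABC) exporters of drugs and organic anions: ABCB1, ABCC1, ABCC2 and ABCG2. They were chosen as a list of 4 names, with earlier results of these data known. Their probes were taken as the non-control spots whose accession is a dog RefSeq transcript of the gene. In this way 3 of the 4 genes had probes, 5 probes in all, out of 1436 named genes and 43584 probes on the array. ABCB1 and ABCC2 had a pair of probes each and ABCC1 had a single one. ABCG2 matched no probe through the gene table used and was not analysed here.

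The cells were MDCK-II, a dog kidney tubule epithelial line, made to express a short hairpin RNA against scribble, a scaffold protein of epithelial polarity, under tetracycline (Tet) control. One arm (with Tet) received tetracycline at 5 µg/ml and the other (without Tet) received none. RNA was taken at 30, 45 and 60 h, and each of the 6 one-colour arrays held RNA mixed from 3 wells of 1 condition. All 6 arrays came from cells carrying the hairpin construct, so the induced hairpin and the drug itself occur together in one arm and cannot be told apart, and the labels do not say whether the line is 1 clone.

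ABC exporters use ATP to move compounds out of the cell against their gradient. ABCB1, or P-glycoprotein, sits in the apical membrane and expels many hydrophobic drugs. ABCC2 (MRP2) is also apical and exports conjugated organic anions, whereas ABCC1 (MRP1) is basolateral in most epithelia and exports glutathione and glucuronide conjugates. ABCG2, the breast cancer resistance protein, is an apical pump with overlapping substrates. In kidney tubules such pumps pass drugs and anions from the cell into the urine, and MDCK cells are a common host for measuring drug transport by ABCB1.

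Between 64.3% and 68.8% of the 43803 non-control spots of an array lay well above background by the scanner program's flag, and 0 were saturated. No probe here carries the name SCRIB, so how far the hairpin lowered scribble RNA was not analysed here. Of 21 epithelial and tubule markers 12 had a named probe and 10 were well above background on all 6 arrays, among them CDH1, OCLN and AQP2, while UMOD was on no array. The summed signal of the 12 ranged from 91024 to 132675 with Tet and from 164452 to 171134 without Tet, and the part of this shift in the results below was not tested. Of 8 fibroblast markers 5 had a probe, and 4 (COL1A1, COL1A2, PDGFRB and THY1) were well above background on all 6 arrays, while DCN was on no array. The summed signal of the 5 was 2114 to 2312 with Tet and 2083 to 2235 without Tet. The blood markers CD4 and CD8A summed to 60.3 to 67.6 with Tet and 58.0 to 65.9 without, and the endothelial markers VWF and KDR to 13244 to 15259 with Tet and 13953 to 15418 without. The 30 h pair of arrays lay on slide 1, the 60 h pair on slide 2, and the 45 h pair spanned both.

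All levels below are log2 of the processed signal less the 75th percentile of the array, so a value of 0 lies at that percentile and a step of 1 is a factor of 2. With 1 array per arm and time there are no replicates of a condition. Probes spotted at least 4 times on an array and well above background, 25 or 26 per array, had a median SD between their spots of 0.07 to 0.08. For a difference between 2 single spots this comes to 0.10 to 0.11, a figure that covers spot-to-spot error only and not the spread between cultures. A lower signal in mixed RNA cannot tell fewer expressing cells from less RNA per cell.

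ABCB1 was higher with Tet from 45 h on, with higher levels at later times with Tet and lower ones at later times without. On its brighter probe, A_11_P050841, the level with Tet was -1.11 at 30 h, -0.30 at 45 h and 1.20 at 60 h, against -1.21, -1.48 and -1.84 without Tet at the same times. In linear signal these were 293, 504 and 1338 with Tet, against 275, 221 and 164 without. All 3 arrays with Tet lay above all 3 without, as held for 11.7% of the 27581 features tested. The difference, with minus without Tet, was 0.10 at 30 h, which is within the spot-to-spot error of 0.11. It was 1.18 at 45 h and 3.05 at 60 h, or 2.26-fold and 8.28-fold, both far beyond that error. The 45 h arrays lay on different slides, and that error does not cover a difference between slides. From highest to lowest, the order of the 6 levels was 60, 45 and 30 h with Tet, then 30, 45 and 60 h without, and only the neighbours at 30 h were within that error of each other.

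**Figure D1:**
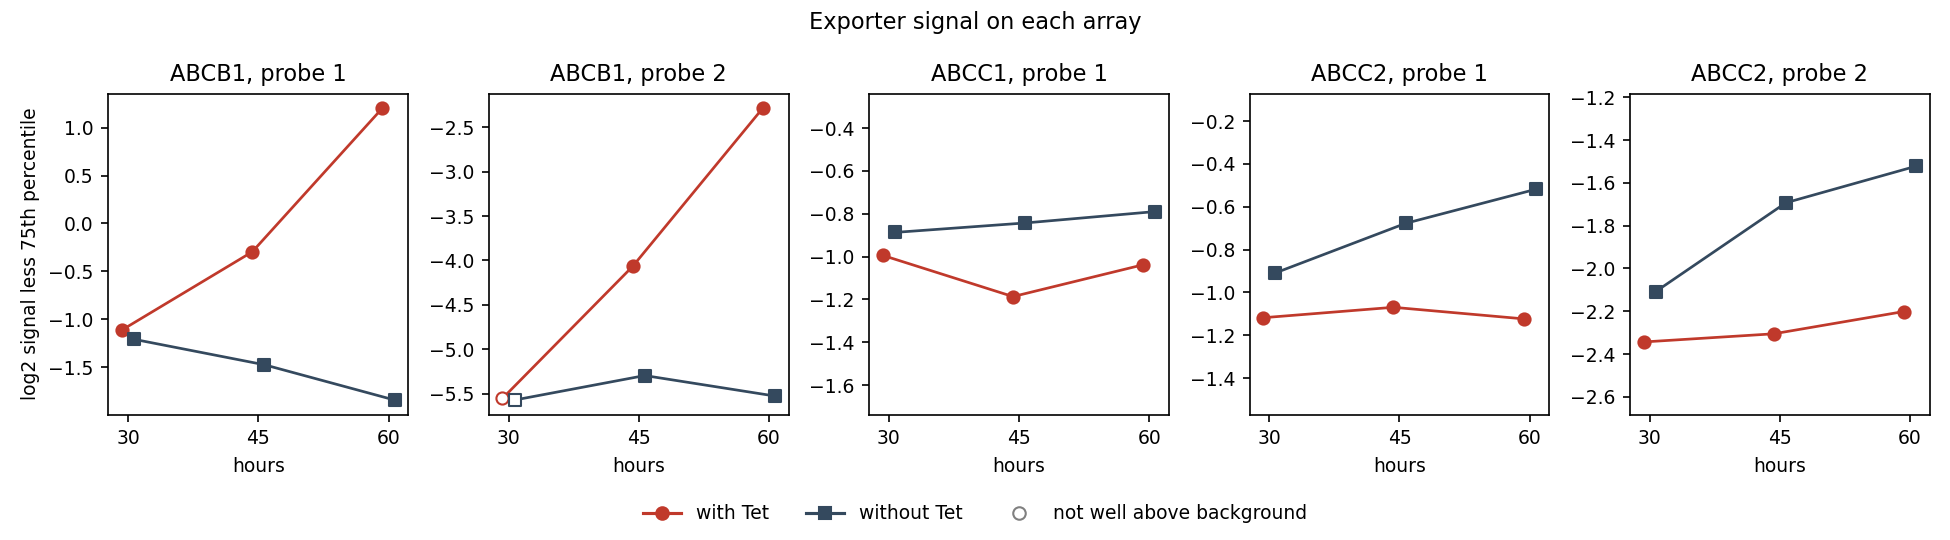
Level of each exporter probe on each of the 6 arrays, as log2 signal less the array's 75th percentile (y axis, its own range in each panel), against hours (x axis, the arms set slightly apart). Red circles are arrays with Tet, dark squares arrays without Tet, and open symbols were not well above background; ABCB1 parts from 45 h on both probes, ABCC1 and both ABCC2 probes lie lower with Tet at each time.

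The dimmer ABCB1 probe, A_11_P0000019933, gave the same picture where it could be read. Its signal with Tet was 13.5, 36.9 and 119 at 30, 45 and 60 h, against 13.4, 15.6 and 12.8 without Tet. Both 30 h arrays were not well above background, so no difference is given there. The difference was 1.23 at 45 h (2.35-fold) and 3.24 at 60 h (9.48-fold). After a normexp background correction with an offset of 50 it was 1.34-fold at 45 h and 2.41-fold at 60 h on this dim probe, whose signal without Tet lies under that offset, against 2.07-fold and 6.23-fold on the brighter one. The difference of -0.63 between 60 and 30 h without Tet on the brighter probe has no counterpart here, since the 30 h spot was not well above background.

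The average difference of ABCB1 over the 3 times was 1.44 ± 0.59 (SE; 3 pairs of arrays), with an unadjusted p of 0.0644 and an adjusted p of 0.238 in limma. This test takes the variation of the difference over time as its error, so a difference that grows with time counts against itself. Without the 30 h pair the mean was 2.11 (adjusted p = 0.0931) and without the 60 h pair 0.64 (adjusted p = 0.385). Without the 45 h pair, which spans both slides, it was 1.57 (adjusted p = 0.601, limma). The slope of the difference was 1.48 ± 0.14 (SE) per 15 h, with an unadjusted p of 0.000565 and an adjusted p of 0.108 in limma. That slope passed the threshold of 0.05 under 3 of 8 alternative settings: with arrays scaled by their median (adjusted p = 0.0358), with normexp (0.00168) and with a trended and robust prior (0.00707). With 1 residual degree of freedom it rests largely on a spread shared over features.

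Few features differed as much at the later times. At 45 h, 121 of 27581 tested features had a larger positive difference than ABCB1, and at 60 h 11 did, against 8753 at 30 h. Among the 998 named genes tested, 6 stood above it at 45 h and 1 at 60 h. The exporters were chosen with earlier results of these data known, so these ranks are a description only. A difference of at least 2-fold higher was seen in 0.736% of tested features at 45 h and 1.92% at 60 h, and ABCB1 met it at both times. A difference of at least 2-fold lower, met by 1.35% and 2.81% of features at 45 and 60 h, was reached by 0 of the 3 exporters. The pair of arrays at 60 h shares a slide, so the 60 h differences hold no difference between slides. The 45 h pair spans both slides, so the 45 h differences may hold one.

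**Figure D2:**
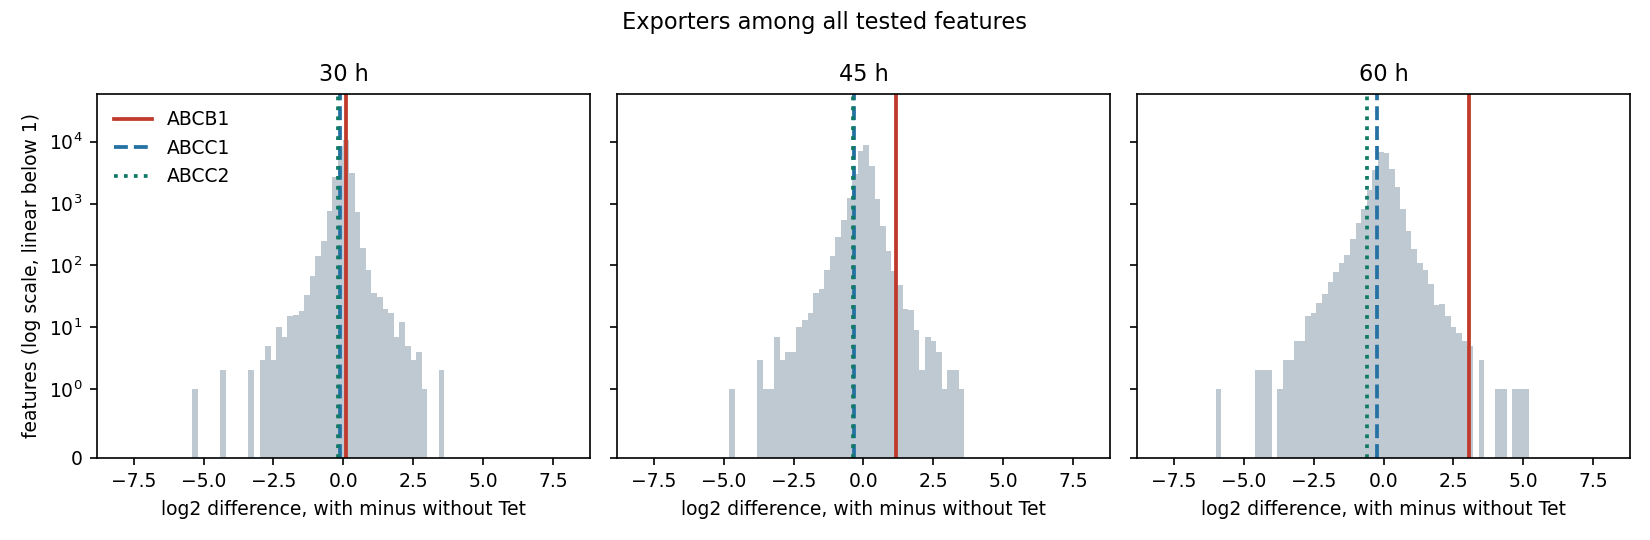
Histograms of the log2 difference, with minus without Tet (x axis), over the 27581 tested features at 30, 45 and 60 h (y axis, number of features on a log scale that is linear below 1), with lines at ABCB1, ABCC1 and ABCC2. ABCB1 lies inside the bulk at 30 h (0.10) and in the upper tail at 60 h (3.05), while ABCC1 and ABCC2 stay inside the bulk at each time.

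ABCC2, the apical exporter of conjugated anions, was lower with Tet at all 3 times on both probes. Of all tested features, 21.8% were lower with Tet at all 3 times. On the brighter probe, A_11_P0000019804, its level with Tet was -1.12, -1.07 and -1.12 at 30, 45 and 60 h, against -0.91, -0.68 and -0.52 without Tet. The level with Tet thus hardly moved between arrays, and the arms drew apart through higher values without Tet at later times. The difference was -0.21, -0.39 and -0.61, against a spot-to-spot SD of 0.10 to 0.11, and reached 1.52-fold lower at 60 h. At 30 h, 13.9% of the tested features lay lower than ABCC2. On the second probe, A_11_P053601, the signal with Tet was 125, 125 and 126, against 148, 190 and 205 without Tet. Its differences were -0.24, -0.61 and -0.68, the last of them 1.60-fold lower.

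The average ABCC2 difference on the brighter probe was -0.40 ± 0.10 (SE; 3 pairs of arrays), with an unadjusted p of 0.0136 and an adjusted p of 0.147 in limma. Without the 60 h pair it was -0.30 and without the 30 h pair -0.50. Without the 45 h pair, which spans both slides, it was -0.41 (adjusted p = 0.601, limma). The slope of its difference was -0.20 ± 0.07 (SE) per 15 h, with an unadjusted p of 0.0481 and an adjusted p of 0.260 in limma. At 60 h, 7.46% of the tested features lay lower than ABCC2.

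ABCC1, the basolateral conjugate exporter, had the smallest differences of the 3 genes at 45 and 60 h, though not at 30 h, where ABCB1 was nearer 0. Its probe, A_11_P0000019697, gave a signal of 319, 272 and 283 at 30, 45 and 60 h with Tet, against 345, 343 and 340 without Tet. All 3 arrays with Tet lay below all 3 without, as held for 10.4% of tested features. The 3 arrays without Tet lay within 0.10 of each other on the log2 scale. The difference was -0.11 at 30 h, about the size of the spot-to-spot error, -0.34 at 45 h and -0.25 at 60 h. The average was -0.23 ± 0.08 (SE; 3 pairs of arrays), with an unadjusted p of 0.0381 and an adjusted p of 0.195 in limma. Its slope was -0.07 ± 0.08 (SE) per 15 h. The 45 h pair spans both slides, and without it the mean was -0.18 (adjusted p = 0.648).

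With limma 0 of the 3 exporters passed an adjusted p of 0.05 between the arms, and 0% of the 27581 tested features did. The smallest adjusted p of any feature was 0.109. At an unadjusted p under 0.05 in limma, which 23.3% of features met, ABCC1 and ABCC2 stood lower, as did 11.1% of the features. ABCB1 was not among the 12.2% that stood higher by that rule, though it was under 4 of 13 alternative settings. For ABCC1 and ABCC2 all 3 arrays with Tet lay below all 3 without, as did 10.4% of tested features. For the slope 0 exporters passed the adjusted threshold, as did 0% of features. At an unadjusted p under 0.05 in limma, which 19.0% of features met, ABCB1 was among the 8.27% with an upward slope and ABCC2 among the 10.7% with a downward one. In limma an unadjusted p under 0.05 is therefore shared with a large part of the array, both between the arms and for the slope.

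Within an array the exporters moved unequally. The log2 ratio of ABCB1 over ABCC2 differed between the arms by 0.31 at 30 h, 1.57 at 45 h and 3.65 at 60 h. The ratio of ABCB1 over ABCC1 differed by 0.21, 1.52 and 3.30. Between ABCC2 and ABCC1 the differences were -0.10, -0.05 and -0.36. These are values of single pairs of arrays and carry no test.

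For time in culture, 60 h minus 30 h over both arms, 0 of the 3 exporters passed an adjusted p of 0.05 in limma, while 8.17% of features did, 1094 of them higher and 1160 lower. With any 1 of the 4 arrays left out, or with the slide as a term, 0 features passed, so the time calls named below rest on all 4 arrays. At an unadjusted p under 0.05 in limma 0 exporters passed either, against 31.4% of features (15.1% higher and 16.3% lower). With arrays scaled by their median the adjusted split was 934 higher and 1818 lower. ABCC2 stood at 0.19 ± 0.12 (SE; 2 arrays per time; 0.04 to 0.34 with each array left out), ABCC1 at 0.03 ± 0.10 (-0.05 with median scaling) and ABCB1 at 0.84 ± 0.72, where the large SE of ABCB1 holds its opposite courses. By arm, the brighter ABCB1 probe was 4.98-fold higher at 60 h than at 30 h with Tet, and 1.55-fold lower without Tet. The brighter ABCC2 probe was 0.996-fold at 60 h over 30 h with Tet and 1.31-fold higher without Tet over the same span. Both 30 h arrays lie on the first slide and both 60 h arrays on the other, so time and slide cannot be told apart in these values.

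Besides the 4 listed genes, 44 other ABC transporter genes were looked up, and 7 had a named probe. Of these 6 were tested, 1 was well above background on no array, and 0 were called in either direction. ABCC5 (MRP5), an exporter of cyclic nucleotides and nucleotide analogues, was the 1 gene of the 6 that was at least 2-fold higher at 60 h, and it was so on all 3 of its probes. Its brightest probe had a signal of 2658, 2887 and 5356 at 30, 45 and 60 h with Tet, against 2980, 2396 and 2324 without Tet. Its differences were -0.16, 0.26 and 1.22 on that probe, -0.13, 0.33 and 1.36 on the second and -0.23, 0.27 and 1.21 on the third, the dimmest, which was 1.48-fold higher at 60 h after normexp. The slope was 0.69 ± 0.11 (SE) per 15 h, with an adjusted p of 0.123 in limma. Like ABCB1, it was higher with Tet at 45 and 60 h, at a smaller size. Unlike the brighter ABCB1 probe, which stood at 0.10 at 30 h, it was lower with Tet at 30 h on all 3 probes.

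ABCC4 (MRP4), an exporter of cyclic nucleotides and urate, stood at -0.08, 0.09 and 0.38. ABCB11, the bile salt export pump of hepatocytes, was dim and uneven, at -0.53, 0.15 and -0.85. ABCA4, a lipid flippase known from photoreceptors, stood at -0.30, 0.31 and 0.01. TAP1, which with TAP2 carries peptides into the endoplasmic reticulum for antigen presentation, was the 1 gene of the 6 that was lower at all 3 times (-0.19, -0.60 and -0.68). So were 21.8% of all tested features. TAP2 stood at 0.02, -0.24 and -0.38. The median mean difference of the 6 genes was -0.10, against 0.01 over all tested features, and at 60 h it was -0.19 against -0.00.

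**Figure D3:**
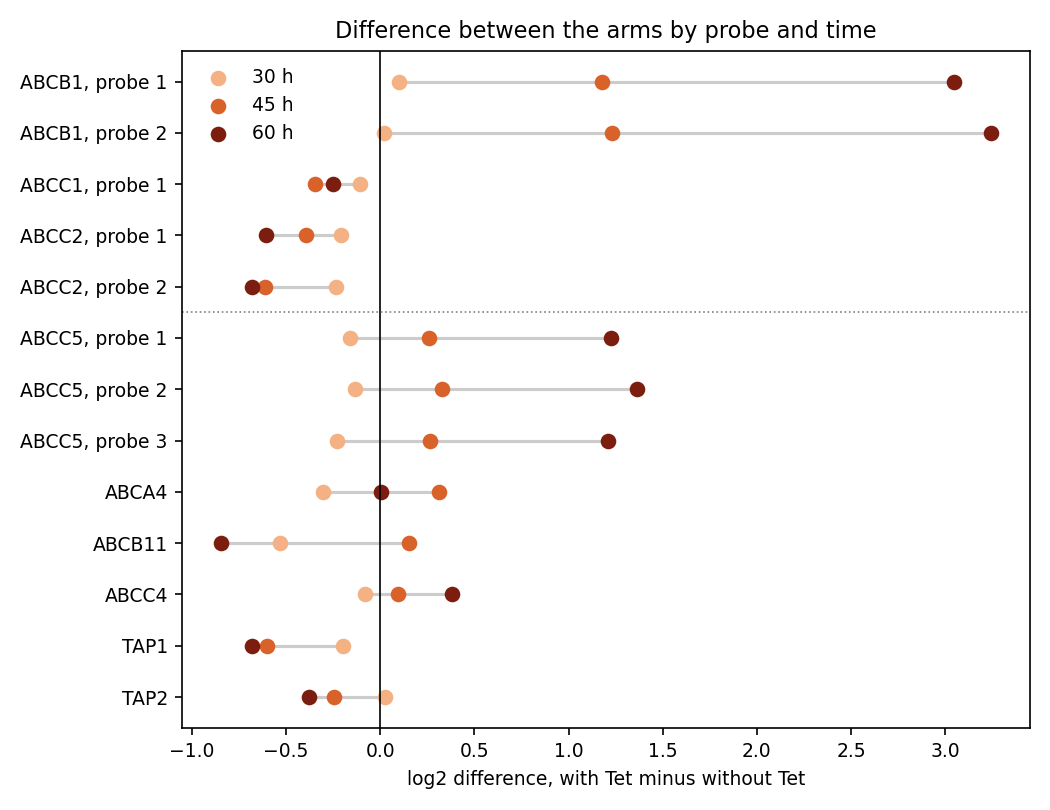
Log2 difference, with minus without Tet (x axis), at 30, 45 and 60 h (light to dark points) for the 5 probes of the listed exporters (above the dotted line) and for 6 other ABC transporter genes, ABCC5 by its 3 probes. ABCB1 and ABCC5 reach furthest to the right at 60 h, and ABCC1, ABCC2 and TAP1 lie left of 0 at all 3 times. Points carry no mark for detection, and the 30 h point of ABCB1, probe 2, comes from 2 arrays not well above background.

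Uptake carriers for drugs and anions supply cells with many substrates of these pumps. Of 32 such genes 6 had a named probe and 3 were tested, with 0 called between the arms, and the median mean difference of the 3 was -0.48. The nucleoside transporter SLC29A1 stood at -0.59, -0.81 and -0.98 and the organic cation transporter SLC22A2 at -0.23, -0.56 and -0.66, both lower at all 3 times, as were 21.8% of tested features. SLCO2A1, a prostaglandin carrier, stood at 0.02, 0.11 and -0.18. Over both arms SLC22A2 was higher at 60 h than at 30 h by 1.45 ± 0.13 (SE; adjusted p = 0.0357, limma), where time and slide cannot be told apart. The other 3 carriers with a probe were too dim to test. SLC10A2, the apical sodium bile acid transporter, had a signal of 4.66, 2.59 and 2.89 at 30, 45 and 60 h with Tet. Without Tet it was 17.0, 30.9 and 72.1. Over the lowest well-measured signal of the array with Tet, the level without Tet was 2.98-fold at 45 h and 6.18-fold at 60 h. That floor is not a detection limit for each probe. At 30 h without Tet, SLC10A2 at 17.0 was not well above background, though that array's lowest well-measured signal was 13.6. The peptide transporter SLC15A1 went the other way, at least 1.42-fold higher at 60 h, and the organic anion carrier SLCO1B3 was lower by at least 2.23-fold at 60 h. These 3 genes fall outside the rule for named genes and were chosen after their values were seen.

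Of 52 genes of drug oxidation and conjugation, 21 had a named probe and 14 were tested. Between the arms 0 were called, 1 was higher at all 3 times (27.7% of features were) and 3 were lower (21.8% were), and the median mean difference was -0.03. The phenol sulfotransferase SULT1A1 stood at -0.16, -0.57 and -1.06, 2.09-fold lower at 60 h. The cytochrome P450 gene CYP2D15 stood at 0.31, 0.21 and 0.27. The glucuronosyltransferase UGT1A6 stood at 0.28, 0.30 and -0.13. Both genes were dim, with signals of 29.3 to 42.8 for CYP2D15 and 39.5 to 51.9 for UGT1A6. Over both arms the cytochrome P450 gene CYP1B1 was lower at 60 h than at 30 h by 0.70 (adjusted p = 0.0378, limma). Time and slide cannot be told apart there either. In the glutathione list 3 of 13 genes were tested and 0 were called. The cystine transporter SLC7A11 stood at -0.48, 0.73 and 1.94, and the glutathione peroxidases GPX1 and GPX2 had mean differences of -0.22 and -0.13.

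Among 39 transcription factors and cofactors known to act on exporter genes, 5 were tested and 0 were called. NFKB1, a subunit of NF-kappaB, had differences of 0.09, 0.27 and 0.44. The glucocorticoid receptor NR3C1 stood at 0.30, 0.08 and 0.36 and the hypoxia factor HIF1A at 0.09, 0.26 and 0.29. All 3 genes were higher at each time, as were 27.7% of tested features. CTNNB1, the beta-catenin gene, stood at -0.05, -0.14 and -0.17. The list's median mean difference was 0.21. Of 20 genes that anchor or carry apical exporters 11 were tested and 0 were called, 4 being higher and 2 lower at all 3 times (27.7% and 21.8% of all features were), with a median of -0.04. RAB10, a GTPase of membrane traffic, stood at 0.26, 0.41 and 0.73. SLC9A3R1 (NHERF1), a scaffold of apical membrane proteins, stood at -0.21, -0.52 and -0.24. The GTPases RAB8A and RAB5A had mean differences of 0.19 each.

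**Figure D4:**
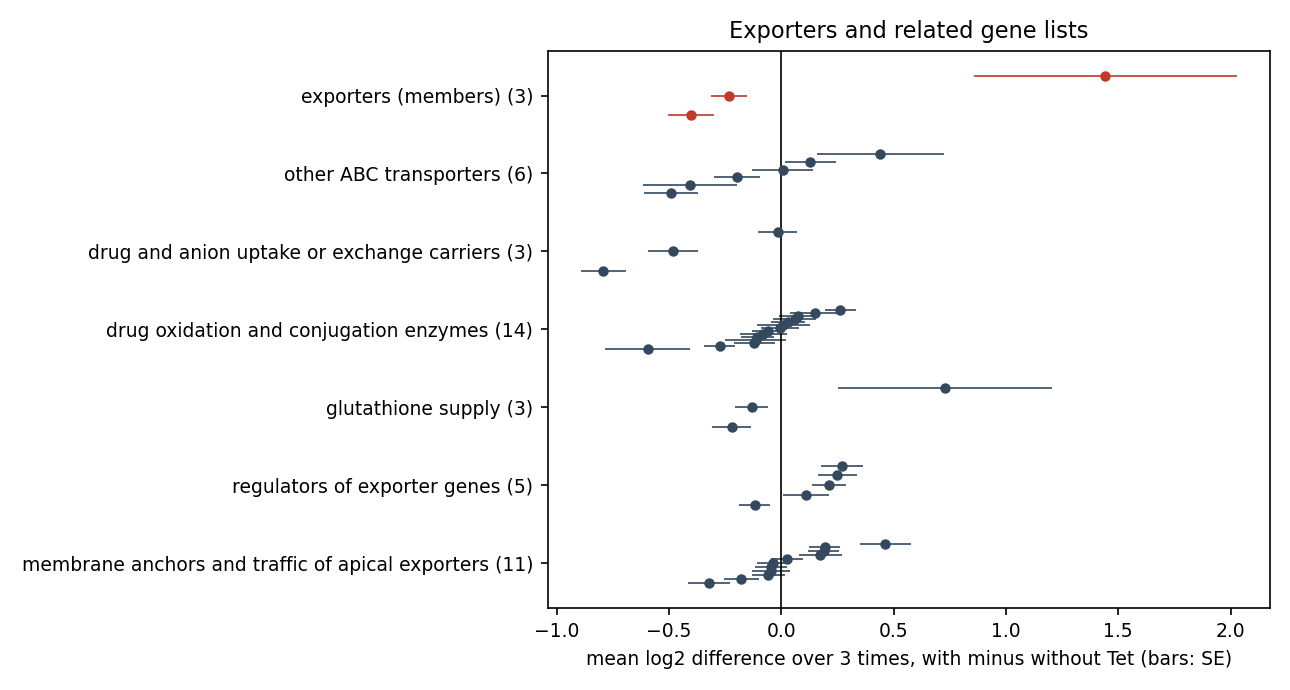
Mean log2 difference over the 3 times, with minus without Tet (x axis), of each tested gene of the exporters (red) and of the 6 other gene lists (dark), with bars for the SE from limma and the number of tested genes in brackets. ABCB1 at 1.44 lies right of every other point, with a wide bar.

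Over the 6 arrays, the named genes whose level followed that of ABCB1 most closely were PPP2CA (r = 0.9995), BMPR1A (0.997), SLC5A3 (0.991), PLA2G7 (0.988) and DSG3 (0.985), out of 972 named genes well above background on all arrays. PPP2CA is a catalytic subunit of protein phosphatase 2A, BMPR1A a BMP receptor, SLC5A3 an inositol transporter, PLA2G7 a secreted phospholipase and DSG3 a desmosomal cadherin. Spearman's rho was 1 for the first 4 and 0.943 for DSG3. Their differences at 60 h were smaller than that of ABCB1, at 0.57 for PPP2CA, 0.59 for BMPR1A, 0.67 for SLC5A3, 0.76 for PLA2G7 and 2.14 for DSG3. For ABCC2 the closest were IL7 (r = 0.993), RAB13 (0.992), KCNJ16 (0.984), CD86 (0.981) and NHLRC1 (0.981). Their rho was 1 for IL7, 0.771 for KCNJ16 and 0.943 for the others. For ABCC1 the closest were SEC11A (r = 0.980), DBI (0.967), RPS4X (0.963), MUC1 (0.963) and ADAMTS10 (0.962). Their rho was 0.943 for DBI and MUC1 and 1 for the others. Of the 972 genes, 44 had r over 0.9 with ABCB1, 54 with ABCC2 and 29 with ABCC1, a cut under the values listed above. A rho at least as high as the lowest of the 5 was met by 40 genes for ABCB1, 121 for ABCC2 and 56 for ABCC1. The 6 points share slides, arms and times, so such likeness is a description and carries no test.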

How the data were processed

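Spot intensity in the deposited scanner files is linear, background-subtracted and detrended per the file headers, and was made with Agilent Feature Extraction 11.5.1.1 on build CanFam3.1. Values in the deposited series matrix are that intensity times 1 factor per array (2.30 to 2.62), and the sources used here do not give where it comes from. Outlier spots (7 to 18 per array) were left out, spots of a probe were averaged on the log2 scale and each array's 75th percentile was subtracted. For SLC10A2, where only 1 arm was well above background, the fold given is the bright level over the dim array's lowest well-measured signal. That signal is not a detection limit for each probe, so the fold is not a strict bound. Accessions were named through RefSeq's gene table for UU_Cfam_GSD_1.0 (2325 probes named, 41259 not). No probe sequences were used, so hybridisation to related genes was not tested.

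A gene was represented by its brightest probe and an unnamed probe by itself. Tests used the 27581 features (998 named) detected on all 3 arrays of at least 1 arm. limma 3.58.1 in R 4.3.3 (lmFit, eBayes, two-sided, Benjamini-Hochberg) was fitted over all of them, with time as a block for the arms, arm by linear time for the slope, and 60 h minus 30 h for time. The fits were tested on simulated data. P-values measure the spread over times or arms, not between cultures, and the number of arrays limits the precision.

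Members, gene lists and rules were chosen with earlier results of these data known. The rule names all member probes, all detected genes of the other ABC list, up to 4 tested genes of each other list by size of mean difference, and the 5 genes nearest each member by Pearson r. One gene that the rule names is not reported here. CYP1B1, named for its time course, falls outside it and was chosen after its values were seen. Alternatives were other scalings, normexp on median spot signal, the series matrix values, other detection filters, the mean of probes, another prior, no time term, the slide and left-out arrays. Leaving out arrays for time was chosen after seeing the data.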

Additional observations from a re-analysis of the deposited data

Results flagged for a closer look

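The brighter ABCB1 probe stood out because its course over time had opposite signs in the arms. Between 30 and 60 h its level moved by 2.32 with Tet and by -0.63 without Tet, with the 45 h array between these ends in each arm, and the change with Tet less that without was 2.95. Each course is 1 array per time, and the difference of the courses was tested only as the slope, at an adjusted p of 0.108 in limma. ABCC1 also had opposite signs, -0.04 with Tet and 0.10 without Tet, a difference of -0.14. It was tested as the slope too, at an adjusted p of 0.695 in limma. The brighter ABCC2 probe moved by -0.01 with Tet and 0.39 without, but its 45 h array with Tet lay above both others of that arm. No group holds 4 arrays, so no array was set apart within a group.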

How the results depend on the processing

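Between the arms 0 features passed the adjusted threshold (6422 at an unadjusted p under 0.05). Under normexp 134 passed, under a trended, robust prior 16, and with time left out of the model 17, while leaving out each pair of arrays gave 0 to 1. For the slope 0 passed (5231 unadjusted). Median scaling gave 240, normexp 1714, the other prior 1781 and the filter asking for detection on all 6 arrays 2. For time in culture 2254 passed. Normexp gave 4139, the other prior 3775, a slide term 0, no detection filter 0, and leaving out each array 0 to 0. The cause of these shifts was not tested.

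The difference between the arms kept its sign and did not pass the adjusted threshold under any of 13 alternatives for ABCB1 (0.64 to 2.11), ABCC1 (-0.30 to -0.18) and ABCC2 (-0.50 to -0.30). An unadjusted p under 0.05 (limma) was met under 4 of the 13 by ABCB1, 8 by ABCC1 and 11 by ABCC2. The 13 are not separate checks. The slide term and leaving out the 45 h pair gave the same estimates and p-values, and the series matrix values nearly repeated the main fit. The slope of ABCB1 ranged from 1.28 to 1.54 over 8 alternatives. For time in culture ABCC1 turned to -0.051 with median scaling, and leaving out each array gave -0.068 to 0.12. For ABCC2 leaving out each array gave 0.04 to 0.34. For ABCB1 it gave -0.36 to 2.05, with -0.17 without the 30 h array with Tet and -0.36 without the 60 h array with Tet. Arrays of the same time are paired in the arms fit, and without that pairing ABCB1 kept 1.44 (adjusted p = 0.297, limma). The low signal of the second ABCB1 probe, 12.8 to 15.6 without Tet, limits its fold values.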
